A study of Homo sapiens with 4 samples.

Results

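Chromatin accessibility of FLI1-knockout and wild-type HK1 cells, both treated with IFN-γ, was compared through the peak lists of the assay for transposase-accessible chromatin (ATAC-seq). HK1 is an established cell line of nasopharyngeal carcinoma, and the knockout line (sgFLI1) had been made with a guide RNA against FLI1. Whether sgFLI1 was 1 clone or a pool was not given. Of the 250225 peaks of the 4 lists in the series, 127393 belonged to this comparison, 67470 in WT-IFN-γ (wild type, IFN-γ) and 59923 in sgFLI1-IFN-γ (knockout, IFN-γ). Peaks on chromosomes 1 to 22 and X were taken as shared where they overlapped a peak of the other list by 1 bp or more, and otherwise as WT-only or knockout-only. The untreated WT and sgFLI1 lists gave values beside them. Each group held 1 library, so nothing here was tested between groups, and every interval covers counting error only.

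IFN-γ binds a receptor whose JAK kinases activate STAT transcription factors, and these in turn induce factors of the IRF family. IRF factors bind DNA at repeats of GAAA, and their targets include antiviral genes, guanylate-binding proteins, the MHC and the tryptophan-degrading enzyme IDO1. FLI1 is a transcription factor of the ETS family, whose members bind a GGAA core.

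Some regions that were listed, or far stronger, in WT-IFN-γ held the IRF word GAAANNGAAA (N, any base) close to the summit, on either strand. Within 100 bp of the summit it was in 10.8% of WT-only peaks, against 3.49% of shared peaks in WT-IFN-γ. Of the 10 strongest WT-only regions, 3 held it. The sequences below were chosen because they hold it. The following sequences show it for a region in intron 1 of CIITA, the master regulator of MHC class II genes, at chr16:10878857-10878956, for the promoter of IFI44 at chr1:78649726-78649795, for intron 1 of UBE2L6, an enzyme of ISG15 conjugation, at chr11:57566272-57566371, for intron 1 of IFIT3, an antiviral RNA-binding protein, at chr10:89332390-89332483, and for a region nearest LGALS16, a galectin gene outside the interferon lists, at chr19:39678156-39678255. These were WT-only. The promoter of IFI27, at chr14:94110596-94110677, was shared but weaker in the knockout. All are written 5′ to 3′ on the + strand of GRCh38, with the IRF word in capitals in either orientation.
CIITA: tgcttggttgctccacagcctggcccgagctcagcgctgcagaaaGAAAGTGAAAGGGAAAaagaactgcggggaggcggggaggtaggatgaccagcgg
IFI44: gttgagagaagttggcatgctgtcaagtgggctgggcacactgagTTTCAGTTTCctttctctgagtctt
UBE2L6: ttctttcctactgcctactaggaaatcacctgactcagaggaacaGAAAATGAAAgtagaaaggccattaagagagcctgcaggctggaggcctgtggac
IFIT3: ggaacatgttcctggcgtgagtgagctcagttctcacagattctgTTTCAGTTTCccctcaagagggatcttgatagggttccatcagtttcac
LGALS16: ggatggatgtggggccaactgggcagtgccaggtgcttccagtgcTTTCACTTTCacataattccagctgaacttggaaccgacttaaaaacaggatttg
IFI27: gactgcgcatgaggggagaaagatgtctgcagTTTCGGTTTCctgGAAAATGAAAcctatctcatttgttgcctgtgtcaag

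The strongest knockout-only region, in intron 1 of ZNF536, lacked this word and held instead AACCACA, the word bound by RUNX factors, in capitals below, at chr19:30392213-30392309. It was printed because it holds that word. Of the 10 strongest knockout-only regions, 1 held the RUNX word, 3 the AP-1 word TGANTCA and 0 the IRF word.
ZNF536: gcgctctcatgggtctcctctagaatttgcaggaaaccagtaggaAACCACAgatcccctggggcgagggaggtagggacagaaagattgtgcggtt

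Of the WT-IFN-γ peaks, 19566 were WT-only, which was 29.0% (95% Wilson interval 28.7 to 29.3%), and 47904 were shared. In sgFLI1-IFN-γ, 11877 peaks were knockout-only, 19.8% of the list (19.5 to 20.1%), and 48046 were shared. The WT-IFN-γ library was the deeper one, with 8.84 tags per kb of background against 6.86, a ratio of 1.29. With both lists cut to their 59923 strongest peaks there were 13557 WT-only and 13363 knockout-only peaks. Shared peaks pair almost 1 to 1, so lists of equal length leave nearly equal numbers, and this cut cannot place the excess. With −log10 q of at least 5 in both lists the numbers were 13262 and 6259, and at 10 they were 11187 and 3505. What made the WT-only number larger was not tested.

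Peaks of a single list were mostly weak. The number of tags stacked at a summit (pileup) had a median of 15 in WT-only peaks and 43 in shared peaks of WT-IFN-γ, and of 12 and 33 in sgFLI1-IFN-γ. For each peak the −log10 p that it should reach in the other library, had only depth and the regional ratio (below) changed, was computed. Among WT-IFN-γ peaks with an expected −log10 p between 5 and 7.5, 47.7% were listed in sgFLI1-IFN-γ, against 95.8% between 20 and 30 and 99.9% above 50. A peak expected at 20 or more and not listed was therefore uncommon, and such peaks are called strong here. Strong peaks numbered 442 among the WT-only peaks (2.26%) and 541 among the knockout-only peaks (4.56%). Because the value is that expected in the other library, and WT-IFN-γ was deeper, knockout-only peaks passed at fewer tags. Their median pileup was 30 and the lowest 15, against 50 and 25 in WT-only peaks. Strong shared peaks numbered 21412 in WT-IFN-γ and 28077 in sgFLI1-IFN-γ. The 2 percentages are thus not a like comparison of strength.

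**Figure D1:**
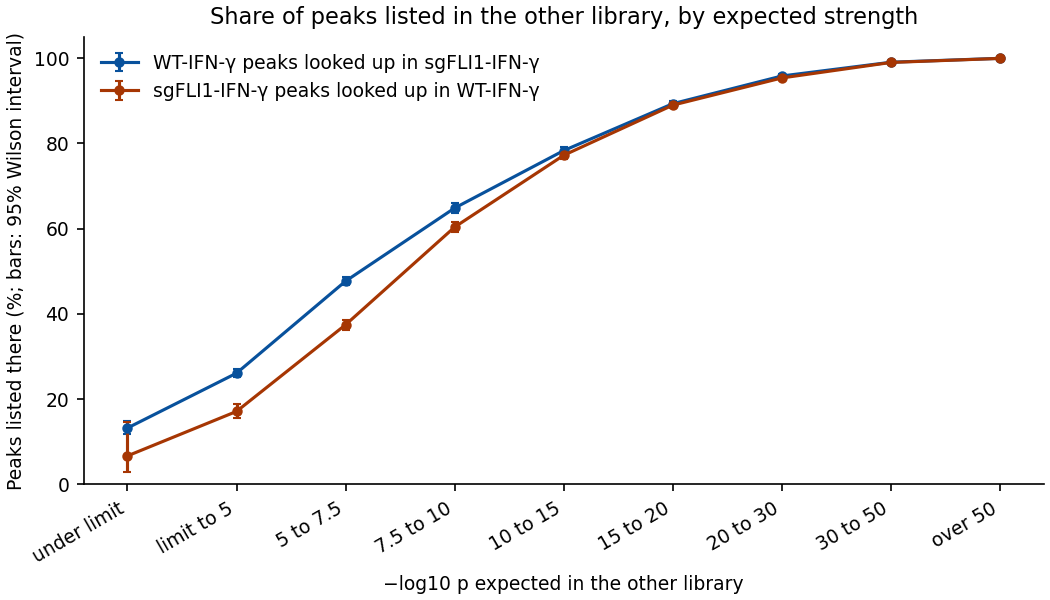
Share of peaks of each IFN-γ list (y axis, percent, with 95% Wilson intervals) that had an overlapping peak in the other list, by the −log10 p expected there (x axis, in classes). The share rose from 13.2% of WT-IFN-γ peaks and 6.67% of sgFLI1-IFN-γ peaks expected under the lowest listed value to 99.9% of both above 50.

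Peaks of a single list lay away from promoters. The share of summits no more than 3 kb from a transcription start (TSS) was 20.4% in WT-only peaks (19.8 to 20.9%) and 19.8% in knockout-only peaks (19.1 to 20.6%), against 41.6% in shared peaks in either list. Shared peaks of like rank in strength had 25.3% and 25.1%, so that most of the gap to all shared peaks went with peak strength. By distance, 11.8% of WT-IFN-γ peaks within 1 kb of a TSS were WT-only, and 47.4% of those over 100 kb away. In sgFLI1-IFN-γ the knockout-only share went from 6.64% to 36.6% over the same distances. Introns held 56.8% of WT-only and 55.6% of knockout-only summits.

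Shared regions allowed a ratio of pileups. Of 46911 regions where 1 peak of each list overlapped 1 of the other, 28536 held at least 60 tags in both libraries together, and their log2 ratio (sgFLI1-IFN-γ over WT-IFN-γ, corrected for depth) varied by region of the genome. The median ratio of 10 Mb bins stood, relative to the genome-wide median, at 0.85, 0.78 and 0.74 in the first 3 bins of chromosome 9 and at −0.94 and −0.70 in the first 2 bins of chromosome X. In the 22 bins below −0.3, 39.2% of WT-IFN-γ peaks were WT-only and 12.4% of sgFLI1-IFN-γ peaks were knockout-only, against 23.5% and 33.6% in the 6 bins above 0.3. Of these 28 bins, 24 were past 0.3 with the same sign in the untreated pair of libraries as well. Copy number was not measured, and a regional change of copy number and one of accessibility cannot be told apart. Every log2 ratio below was corrected for depth and for the bin's median.

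After both corrections, 686 of the 28536 shared regions (2.40%) were 2-fold or more lower in sgFLI1-IFN-γ and 451 (1.58%) were 2-fold or more higher. The order of these counts turned at a minimum of 30 tags (1210 lower, 1301 higher). Over the 28536 regions the ratios had an SD of 0.44 on the log2 scale, and the counting error alone gave a median SD of 0.27.

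Genes of the IFN-γ response had a WT-only peak nearby more often than all protein-coding genes. Of 132 interferon genes (guanylate-binding, MHC class I and II, antiviral, chemokine, signalling and checkpoint genes, and IDO1), 52 (39.4%, 31.5 to 47.9%) had a WT-only summit within 10 kb of the TSS, against 16.4% of all 19962 protein-coding genes. Knockout-only summits lay within 10 kb of 13 of them (9.85%), against 9.61% of all genes. Within 3 kb the counts were 28 (21.2%), where all genes had 5.90%, and 3 (2.27%), where all genes had 3.26%. A promoter peak was listed in WT-IFN-γ but not in sgFLI1-IFN-γ for 21 interferon genes, against 3.42% of all genes, and for 0 the other way round, against 1.77%, while 95 had one in both. Antiviral genes made up 29 of the 52, out of 54 on their list, and guanylate-binding proteins 4 of 7. Counted by peaks instead of genes, WT-only peaks were not nearer to interferon genes. Within 10 kb of such a TSS lay 0.291% of WT-only peaks and 0.326% of shared WT-IFN-γ peaks.

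The 12 strongest of these WT-only regions, 1 per gene, held between 31 and 128 tags in WT-IFN-γ. None had a peak in sgFLI1-IFN-γ by construction, but 10 had none in either untreated list either, and 8 held an IRF word. Over all WT-only peaks these shares were 55.5% and 10.8%, and over the strong ones 34.6% and 24.4%. The 12 regions were chosen by their −log10 q in WT-IFN-γ, which favours regions high in that library. The strongest was the region in intron 1 of CIITA printed above, 1654 bp past the TSS, with 128 tags (exact 95% Poisson interval 107 to 152), where 76.8 were expected in sgFLI1-IFN-γ. TRIM22, an antiviral restriction factor, had 95 tags at −20 bp from its TSS, and OAS1, a sensor of double-stranded RNA, had 45 tags 7 bp past its TSS. IFI44 had 35 tags, UBE2L6 62 and IFIT3 60. HLA-F, an MHC class I gene, had 37 tags at −104 bp from the TSS. CD40, a co-stimulatory receptor, had 36 tags at −6837 bp from its TSS, and CASP1, the inflammasome protease, had 31 tags at −39 bp from its own. In all of these only WT-IFN-γ listed a peak. The remaining regions were TNFSF10, which encodes the death ligand TRAIL, with 58 tags in WT-IFN-γ and 9 in untreated sgFLI1, RSAD2, an antiviral enzyme, with 33 in WT-IFN-γ and 10 in untreated WT, and IDO1.

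IDO1 catalyses the first step of tryptophan breakdown to kynurenine. Its promoter peak, at −57 bp from the TSS, held 53 tags in WT-IFN-γ (39.7 to 69.3) and was listed in none of the other 3 libraries. In sgFLI1-IFN-γ 39.5 tags and a −log10 p of 15.4 were expected, and 89.3% of WT-IFN-γ peaks expected between 15 and 20 were listed there. The peak held an IRF, a RUNX and a TEAD word. At the neighbouring IDO2, the gene and its 10 kb upstream had 5 peaks in WT, 3 in sgFLI1, 8 in WT-IFN-γ and 2 in sgFLI1-IFN-γ. Both peaks that remained were weaker in the knockout, with 117 against 32 tags (log2 ratio −1.44) and 76 against 23 (−1.30). KYNU, the kynureninase gene, had 12 peaks in WT, 6 in sgFLI1, 12 in WT-IFN-γ and 8 in sgFLI1-IFN-γ. The other 8 genes of the pathway had at most 2 WT-only and 1 knockout-only peak each, and 4 genes of the 11 had a shared promoter region, with a median log2 ratio of 0.05.

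**Figure D2:**
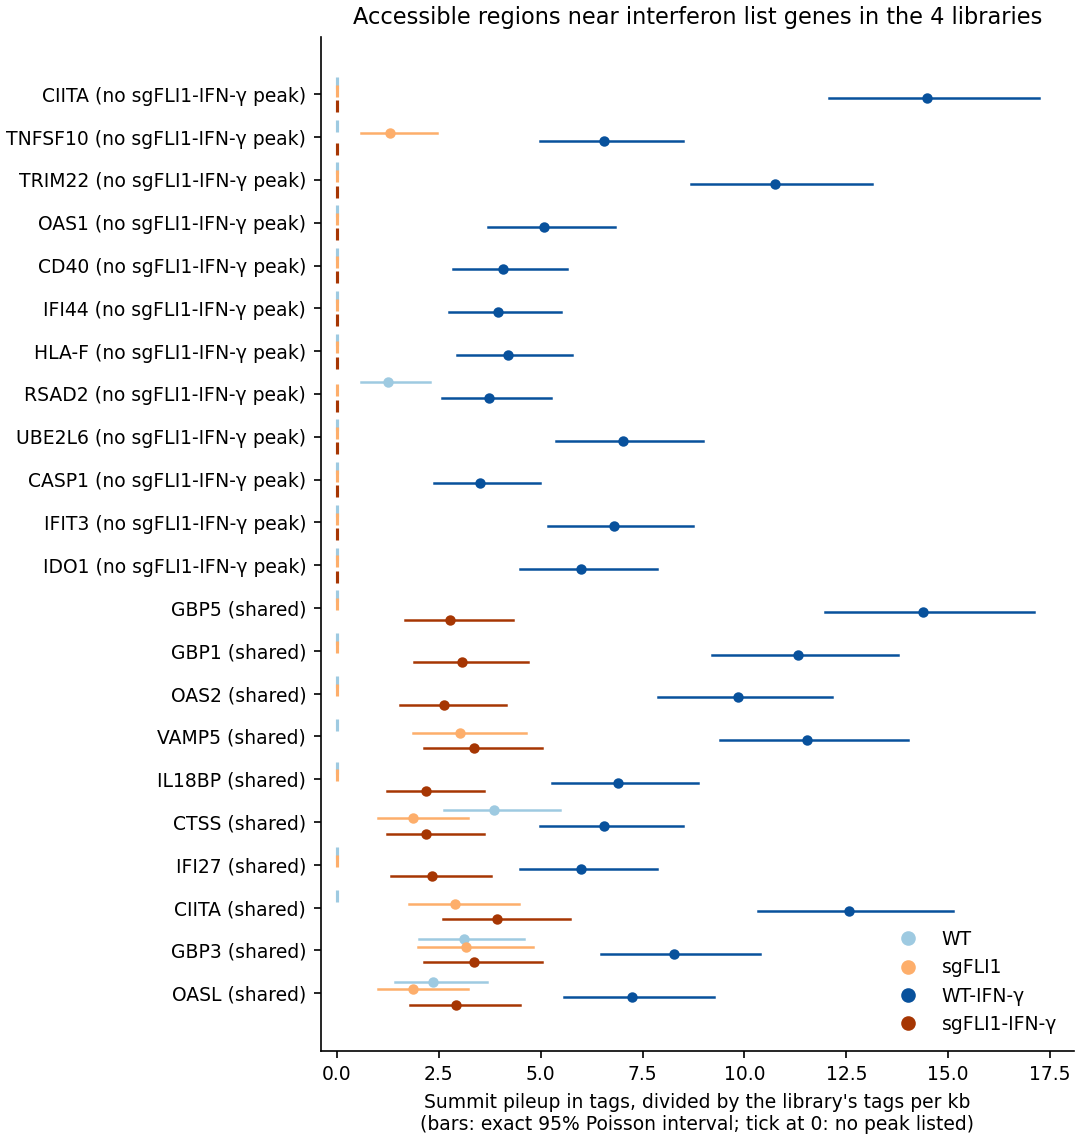
Summit pileup divided by the library's tags per kb (x axis), with exact 95% Poisson intervals, in the 4 libraries at the 12 strongest WT-only regions near interferon genes and at the 10 shared promoter regions of interferon genes with the lowest ratio; a tick at 0 marks no listed peak. Both sets were chosen by WT-IFN-γ against sgFLI1-IFN-γ, so WT-IFN-γ lies to the right of sgFLI1-IFN-γ by construction. It also lies to the right of the untreated libraries, which a choice of high WT-IFN-γ values favours.

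Among promoter regions that both lists held, the interferon genes were also lower in the knockout. For 84 of them a shared promoter region with enough tags could be compared (the strongest within 3 kb of each TSS). Their median log2 ratio was −0.38 and 74 lay below 0, whereas over 11541 protein-coding genes the median was −0.00 and 5804 lay below 0. A fall of 2-fold or more was seen at 14 interferon genes, against 0.641% of all such genes, and a rise of 2-fold or more at 0, against 0.217%. The 21 genes whose promoter peak was listed in WT-IFN-γ alone are not in this median.

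The guanylate-binding proteins, GTPases of cell-autonomous defence, had the lowest values, with a median log2 ratio of −1.57 over 4 genes. GBP5 had 127 tags in WT-IFN-γ and 19 in sgFLI1-IFN-γ (−2.35), and GBP1 had 100 and 21 (−1.86), with no peak in either untreated list. GBP3 had 73 and 23 tags (−1.28), and 25 in WT and 22 in sgFLI1 without IFN-γ. The GBP3 values were thus close to each other in 3 libraries, and WT-IFN-γ alone was high. GBP1, GBP3 and GBP5 are among the 10 interferon promoters named for the lowest ratio, a choice that favours high WT-IFN-γ values.

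Antiviral genes had a median of −0.45, with 37 of 38 below 0. OAS2, which like OAS1 makes the messenger that activates RNase L, had 87 against 18 tags (−1.83) and no untreated peak. OASL had 64 against 20 (−1.22), with 19 in untreated WT and 13 in untreated sgFLI1. IFI27, printed above, had 53 against 16 (−1.35), and IFIH1, the RNA sensor MDA5, had 107 against 39 (−1.02). At OAS2, OASL and IFI27 the WT-IFN-γ value was the highest of the libraries that listed a peak. These genes too were named for their low ratio, which favours such an order.

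For antigen presentation the differences were smaller in MHC class I than in class II. The 14 MHC class I and peptide-loading promoters had a median of −0.26, with 12 below 0 and 0 at 2-fold. TAP1 and PSMB9, the peptide transporter and an immunoproteasome subunit, share a promoter region, with 198 against 112 tags (−0.44). B2M, the light chain of class I molecules, had 159 against 103 (−0.11). The 5 class II promoters had a median of −0.44. The CIITA promoter region, at −92 bp from the TSS, had 111 against 27 tags (−1.30), with no peak in WT and 20 tags in sgFLI1 untreated, and CTSS, a protease that trims the invariant chain, had 58 against 15 (−1.62), with 31 and 13 untreated. CTSS was thus also lower in the untreated knockout. The difference between the class I and class II lists was not tested.

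Elsewhere on the interferon lists, VAMP5, a vesicle protein, had 102 against 23 tags (−1.77), and IL18BP, the binding protein that neutralises IL-18, had 61 against 15 (−1.62). DHX58, an RNA helicase of the RIG-I family, had 71 against 26 (−1.18), and BATF2, a transcription factor of the AP-1 type, had 81 against 30 (−1.01). The chemokine list had 1 gene to compare, CXCL16, with 93 against 27 tags (−1.19), which was also lower in the untreated pair (−0.47). Signalling and IRF genes had a median of −0.12 over 13 promoters, and the list of checkpoint, death and adhesion genes one of −0.16 over 9. At the strongest region of each promoter the highest ratio was 0.23, at ICAM1, an adhesion molecule, with 38 against 29 tags. Weaker regions within 3 kb of a TSS reached 0.67 in IRF2 (36 against 48 tags) and 0.23 at PML (79 against 69), whose strongest regions had 0.07 (73 against 64) and −0.32 (111 against 66).

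CD274, the gene of PD-L1, and JAK2, the receptor kinase, lie in the block at the start of chromosome 9. The CD274 promoter had 81 tags in WT-IFN-γ and 96 in sgFLI1-IFN-γ, a log2 ratio of 0.61 by depth alone and of −0.19 with the regional correction. JAK2 had 109 and 121 tags, with 0.52 by depth alone and −0.28 after the correction. Their direction therefore turned with the regional correction.

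**Figure D3:**
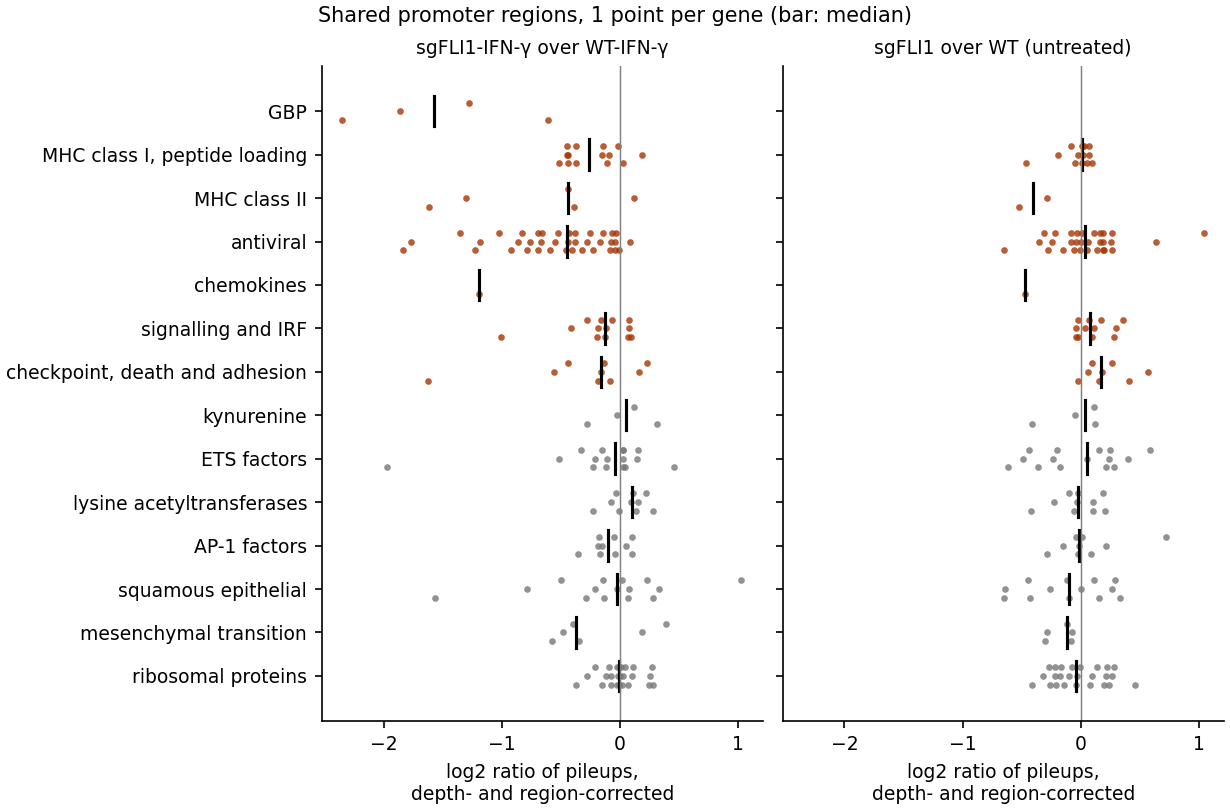
Log2 ratio of summit pileups, sgFLI1 over WT, corrected for depth and region (x axis), at shared promoter regions, 1 point per gene and a bar at the median of each gene list, for the IFN-γ pair and the untreated pair. The interferon lists lie below 0 in the IFN-γ pair, with a median of −0.38 over 84 genes, and the ribosomal protein genes lie around 0 (−0.01 over 25).

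The untreated pair shares no library with the IFN-γ pair. For 66 interferon genes the same promoter region could be compared in both pairs, with a median log2 ratio of −0.19 with IFN-γ (56 below 0) and 0.04 without (26 below 0). For 30 antiviral genes the medians were −0.39 (29 below 0) and 0.03 (13 below 0). Over 11136 protein-coding genes the medians were −0.00 (5574 below 0) and −0.01 (5834 below 0). The medians of the interferon and antiviral genes were thus below 0 in the IFN-γ pair alone, but the difference between the pairs was not tested. Single genes were low in both, such as HERC5, a ligase for ISG15, with −0.67 and −0.65, and the 2 MHC class II promoters that could be compared had medians of −0.16 and −0.41. Regions with no untreated peak, such as GBP1 and OAS2, could not enter this count.

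Knockout-only regions near interferon genes were described in the same way. The 12 strongest held between 8 and 41 tags, 10 of them were also listed in untreated sgFLI1 and 0 held an IRF word. Over all 11877 knockout-only peaks, 28.8% were in untreated sgFLI1 alone, 14.9% in both untreated lists, and 2.23% held an IRF word. Among the 541 strong ones these shares were 48.8%, 39.7% and 1.48%. The IRF word was thus rare in knockout-only peaks at large, but it was also in only 2.67% of all sgFLI1-IFN-γ peaks and 2.78% of the shared ones. Shared peaks of like rank had it in 4.16%. The strongest lay at −2204 bp from the TSS of IFNGR2, a chain of the IFN-γ receptor, with 41 tags in sgFLI1-IFN-γ, 43 in untreated sgFLI1 and no peak in either WT list. A region at −9678 bp from the TSS of PDCD1LG2, the gene of PD-L2, had 36 and 48 tags in the treated and untreated knockout and none in WT, in the block of chromosome 9 where the regional log2 ratio was 0.80. IFI35 had 37 tags in sgFLI1-IFN-γ and 38 and 37 in untreated WT and sgFLI1, so that WT-IFN-γ alone lacked a peak.

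The IRF word divided the classes beyond these genes. Within 100 bp of the summit it was found in 10.8% of WT-only peaks (10.3 to 11.2%), against 3.49% of shared peaks in WT-IFN-γ and 3.31% of shared peaks of like rank. Knockout-only peaks had it in 2.23% (1.98 to 2.51%), against 2.78% and 4.16%. The share over all peaks was 5.60% in WT-IFN-γ and 2.67% in sgFLI1-IFN-γ. Among shared regions it went from 15.7% of those 2-fold or more lower in the knockout, through 2.39% of the middle class, to 1.77% of those 2-fold or more higher. WT-only summits carried the word away from promoters (11.3%) as well as within 3 kb of a TSS (8.55%).

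These IRF words lay beside the summit and often had the same middle bases. In WT-only peaks there were 19.7 matches per 1000 peaks between 40 and 20 bp before the summit and 22.1 between 20 and 40 bp after it, against 2.27 and 3.37 in knockout-only peaks. Of 2498 matches in WT-only peaks, 627 read GAAAGTGAAA (25.1%), the form in the CIITA sequence above, against 280 of 1863 (15.03%) in shared peaks. In knockout-only peaks the most common form was GAAAAAGAAA, with 50 of 282 matches (17.7%).

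**Figure D4:**
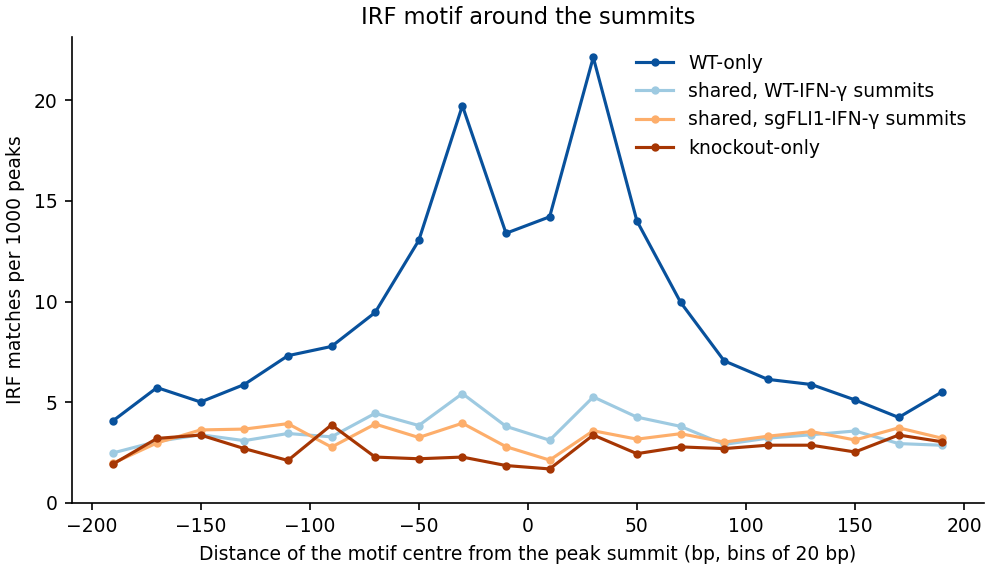
Matches of the IRF word per 1000 peaks (y axis) by distance of the word's centre from the peak summit in bins of 20 bp (x axis), for WT-only, knockout-only and shared peaks. WT-only peaks have 19.7 and 22.1 matches per 1000 in the bins 20 to 40 bp before and after the summit, and knockout-only peaks have 2.27 and 3.37.

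Of the other words, those of RUNX and TEAD differed most between the ends of the ratio range. The RUNX word AACCACA was found in 7.13% of knockout-only peaks against 4.54% of shared peaks of like rank, and in 4.83% of WT-only peaks against 5.63%. In shared regions it rose in share from 4.23% of those 2-fold or more lower to 11.1% of those 2-fold or more higher in the knockout. The AP-1 word TGANTCA was found in 22.2% of WT-only and 21.6% of knockout-only peaks, near the 23.9% and 22.6% of shared peaks of like rank. In shared regions it was in 34.1% of those 2-fold or more lower, 20.4% of the middle class and 30.6% of those 2-fold or more higher. Among strong peaks it was in 32.1% of WT-only and 32.3% of knockout-only ones, against 21.8% and 22.8% of strong shared peaks. The AP-1 word was thus more common at both ends. The ETS word CCGGAAGT was rare in both (0.250% and 0.135%), against 0.331% and 0.296% at like rank, and the repeat GGAAGGAA was found in 2.35% and 2.68%, against 2.55% and 2.50%. The TEAD word CATTCCA was in 11.3% of shared regions 2-fold or more higher (8.71 to 14.6%), 3.82% of the middle class and 5.25% of those 2-fold or more lower. It was in 5.27% of WT-only and 5.67% of knockout-only peaks, and among strong peaks in 2.94% and 7.76%. The CTCF word was in 4.58% and 4.02%, against 7.63% and 7.18% of shared peaks of like rank. A word is a description of these windows and does not show that a factor was bound.

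**Figure D5:**
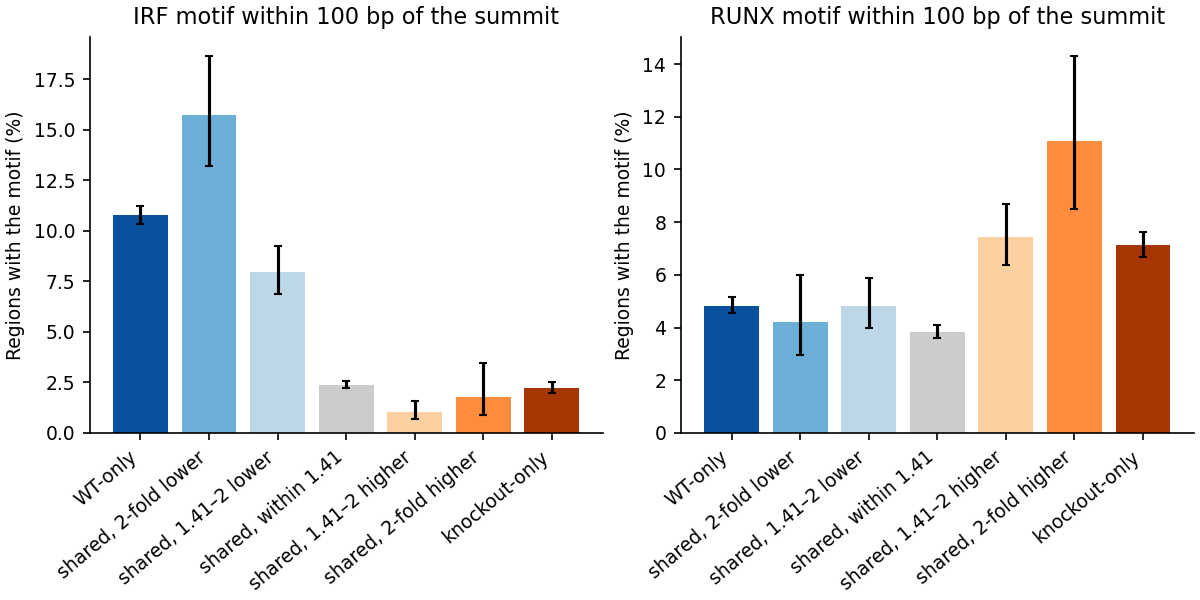
Share of regions with the IRF and with the RUNX word within 100 bp of the summit (y axis, percent, with 95% Wilson intervals), for WT-only peaks, for shared regions in classes of the log2 ratio and for knockout-only peaks (x axis). The IRF share among shared regions goes from 15.7% of the lowest class to 1.77% of the highest, and the RUNX share from 4.23% to 11.1%.

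The strong peaks of both classes differed in their untreated state. Of the 442 strong WT-only peaks, 153 (34.6%) had no peak in either untreated list, 139 (31.4%) had one in WT alone, 16 in sgFLI1 alone and 134 (30.3%) in both. An IRF word was in 24.4% of the 442 (20.7 to 28.6%), against 3.43% of strong shared peaks, and in 86 of the 153 that no untreated list held (56.2%, 48.3 to 63.8%). Of these 153, 5 lay within 10 kb of the TSS of an interferon gene. So did 57 of all 19566 WT-only peaks (0.291%) and 156 of all 47904 shared WT-IFN-γ peaks (0.326%). Among strong shared peaks of WT-IFN-γ it was 107 of 21412 (0.4997%). Of the 541 strong knockout-only peaks, 264 (48.8%) were also in untreated sgFLI1 alone, 215 (39.7%) in both untreated lists, 27 in WT alone and 35 (6.47%) in neither. An IRF word was in 1.48% of them, and the RUNX word in 15.2% (12.4 to 18.4%), against 4.77% of strong shared peaks. Of the 479 that untreated sgFLI1 also held, 80 had the RUNX word (16.7%).

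Among all WT-only peaks, 10854 (55.5%) were in neither untreated list, and 16.5% of these held the IRF word. Shared WT-IFN-γ peaks in neither untreated list had it nearly as often, in 247 of 1679 (14.7%, 13.1 to 16.5%), and such peaks of sgFLI1-IFN-γ in 11.1%. Among WT-only peaks the share was 3.85% for the 4050 that untreated WT alone also listed, and 2.81% for the 2917 that both untreated lists held. Of the knockout-only peaks, 5713 (48.1%) were in neither untreated list, with the IRF word in 2.38%, and 3415 (28.8%) were in untreated sgFLI1 alone.

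The 10 strongest WT-only regions by q were for the most part listed in untreated WT too (7 of 10). A region at −23083 bp from the TSS of CCDC200 had 195 tags in WT-IFN-γ and 229 in WT, with no peak in either knockout list, and one nearest HAPSTR1 had 122 and 100. An intron of SEMA5A, the gene of a semaphorin, had 100 tags in WT-IFN-γ, 99 in WT and 12 in sgFLI1. These regions followed the genotype with or without IFN-γ. The region 22315 bp past the TSS of LGALS16 had 101 tags in WT-IFN-γ alone, and so it joined CIITA as a region without an untreated peak.

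Of the 10 strongest knockout-only regions, 9 were listed in untreated sgFLI1. The ZNF536 intron printed above had 75 tags in sgFLI1-IFN-γ and 68 in sgFLI1, with no WT peak. An intron of FPR3, a formyl peptide receptor gene, had 66 and 81 tags in the treated and untreated knockout and 14 in untreated WT, and an intron of ABL1, a tyrosine kinase gene, had 57, 58 and 17. A region nearest CDH17, an adhesion cadherin gene, had 57 and 73 tags and no WT peak.

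Shared regions at the ends of the ratio range showed the same split. The lowest was the promoter of CROT, an acyltransferase of peroxisomes, with 82 tags in WT-IFN-γ and 8 in sgFLI1-IFN-γ (log2 ratio −2.84) and 84 and 15 untreated. A second intron region of SEMA5A had 74 and 9 tags (−2.74), and 81 and 13 untreated. A region nearest TLR5, the flagellin receptor, had 93 and 11 (−2.74), with 30 in WT and 11 in sgFLI1, and it was the only one of the 8 lowest with an IRF word. At the other end, an intron of ARHGAP31, a GTPase regulator, had 12 tags in WT-IFN-γ and 86 in sgFLI1-IFN-γ (3.21), 86 in sgFLI1 and no peak in WT. An intron of CBX5, which encodes heterochromatin protein 1α, had 20 and 95 tags (2.62), and 11 and 98 untreated. All 8 of the highest regions were listed in untreated sgFLI1.

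Of the regulators on which the series turns, FLI1 itself had a promoter peak at −804 bp from its TSS in WT (12 tags) and WT-IFN-γ (22 tags) and in neither knockout list. A peak list holds no reads across a guide's cut, so the knockout could not be checked here. CREBBP, which encodes the acetyltransferase CBP, had 5 peaks in WT, 4 in sgFLI1, 8 in WT-IFN-γ and 3 in sgFLI1-IFN-γ over the gene and its 10 kb upstream, and 5 were WT-only. Its promoter had 86 tags in WT, 75 in sgFLI1, 94 in WT-IFN-γ and 65 in sgFLI1-IFN-γ, a log2 ratio of 0.09 in the IFN-γ pair. The gene lies in a bin of chromosome 16 with a median log2 ratio of −0.26 by depth alone. The sign of the CREBBP ratio therefore turned with the regional correction, and its peak counts are not corrected for depth or region. KAT5, the acetyltransferase TIP60, had 2 peaks in every list, and its promoter had 206 and 169 tags (0.14). At the promoters of CREBBP and KAT5 the ratio thus stayed within the counting SD of 0.27 of a typical shared region.

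Gene lists outside the interferon response had medians near 0: −0.04 for 16 ETS factors, 0.10 for 10 lysine acetyltransferases, −0.10 for 10 AP-1 factors, −0.02 for 15 squamous epithelial genes and −0.01 for 25 ribosomal protein genes. Mesenchymal transition genes had −0.37 over 6. Among single genes, chosen after their values were seen, the ETS factor ETV7 had 56 against 11 tags (−1.97), the keratin gene KRT17 had 64 against 18 (−1.56) and KRT5 had 32 against 50 (1.02). As to the label, 9 of 12 squamous epithelial markers had a peak within 3 kb in WT-IFN-γ and 7 of 12 in sgFLI1-IFN-γ. TP63, KRT14 and GRHL2 had none in either list, and CDH1 and KRT6A had none in the knockout. Of 9 lymphoid and myeloid markers, 1 and 2 had a peak, and PTPRC and CD3E had none. Of 5 fibroblast markers, 2 had a peak in WT-IFN-γ and 3 in sgFLI1-IFN-γ, and of 4 endothelial markers, 0 and 1. The marker counts thus did not single out the squamous set.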

How the data were processed

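ATAC-seq peak lists of HK1 cells, 1 for each of WT, sgFLI1, WT-IFN-γ and sgFLI1-IFN-γ, were used. The submitters' processing notes name Trimmomatic 0.3, Bowtie2 2.3.4.1 and MACS2 2.1.2, and the build GRCh38. The deposited columns were MACS2's score, its fold enrichment at the summit (a ratio) and the −log10 p and −log10 q values, and the largest q was 0.0499. Whether replicates were pooled or filtered for reproducibility, and whether tags were shifted, is not given in the sources used here, so each list was treated as 1 library. An unlisted region is one below the calling threshold or removed by such a filter, not one without tags. The expected −log10 p allows for the threshold alone.

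Summit pileup and local background were solved from each deposited pair of fold and −log10 p by inverting the Poisson tail, within 0.001, for 100% of WT-IFN-γ and 99.998% of sgFLI1-IFN-γ peaks. Tags per kb came from the lowest background. The regional correction was the median log2 ratio of shared regions in bins of 10 Mb with at least 20 pairs. Genes were taken from GENCODE 44, promoters as 3 kb around a TSS, gene windows as 10 kb around the canonical TSS, and words within 100 bp of the summit from GRCh38. Strength matching used 20 rank classes. Named regions were FLI1, IDO1, CREBBP, KAT5 and kynurenine genes, the 12 strongest WT-only and knockout-only interferon regions, the 10 lowest and 5 highest shared interferon promoters, the 10 strongest regions of each class, the 8 lowest and 8 highest shared regions, and the strongest regions of single lists near the other listed genes. The members and gene lists were chosen with earlier results of these data known. Scripts were tested on simulated data. The software was scipy 1.17.1, numpy 2.4.6, matplotlib 3.10.9 and pandas 2.3.3 under Python 3.11.15.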

Additional observations from a re-analysis of the deposited data

Results flagged for a closer look

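At 4 named regions the genotype that listed a peak with IFN-γ was the opposite of the one that listed it without. The same pattern was found at 1745 of all WT-only peaks (8.92%) and at 978 of all knockout-only peaks (8.23%), so it was not particular to these regions. The region before TNFSF10 had 58 tags in WT-IFN-γ and no sgFLI1-IFN-γ peak, whereas untreated sgFLI1 listed 9 tags and untreated WT none. These 9 tags were close to the lowest pileup listed in untreated sgFLI1, which was 7. An intron of CYBRD1, a ferric reductase gene, had 82 tags in WT-IFN-γ alone among the treated libraries and 41 in sgFLI1 alone among the untreated ones. The region at −95 bp from the TSS of SLC45A4 had 74 tags in sgFLI1-IFN-γ alone with IFN-γ and 82 in WT alone without. A weak intron region of CREBBP had 10 tags in WT-IFN-γ and 12 in untreated sgFLI1. With 1 library per group the difference was not tested.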

How the results depend on the processing

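No paired analysis was possible because each group held 1 library. Of 78 alternative values, 39 moved beyond their limits. Requiring −log10 q of at least 5 in both lists gave 6259 knockout-only peaks, 8919 WT-only and 6191 knockout-only peaks expected to be listable, IRF shares of 12.2% (WT-only) and 1.87% (knockout-only) and promoter shares of 22.1% and 21.97%. At 10, these were 11187 WT-only and 3505 knockout-only peaks, 5918 and 3460 listable, 5 interferon genes near knockout-only peaks, an IRF share of 1.65% (knockout-only) and promoter shares of 24.3% and 23.4%. With 5 for the peak and no peak at any q in the other list, they were 9898 and 4340 peaks, 9878 and 4340 listable, 8 interferon genes near knockout-only peaks, IRF shares of 13.7% and 1.82% and promoter shares of 21.1% and 21.8%. Lists of equal length gave an IRF share of 12.7% in WT-only peaks. A minimum of 30 tags gave 1210 shared regions 2-fold lower and 1301 higher, so that the order of these counts turned, and 120 tags gave 119 and 38. A window of 3 kb gave 28 and 3 interferon genes near WT-only and knockout-only peaks, and 50 kb gave 101 and 45 (76.5% and 34.1%, against 56.3% and 39.3% of all genes). A promoter of 1 kb gave 10.7% and 9.44%. Words within 50 bp gave IRF shares of 6.81% and 0.99%, and strong peaks, an alternative chosen after seeing the data, 24.4% and 1.48%. The IRF share was higher in WT-only than in knockout-only peaks in 9 of 9 settings. More interferon genes lay near WT-only than near knockout-only peaks in 9 of 9. The same held for all protein-coding genes in each setting, so this order alone is not particular to interferon genes. With lists of equal length, 43 interferon genes (32.6%) lay near WT-only peaks, against 12.3% of all genes. Near knockout-only peaks there were 13 (9.85%), against 10.8%. Depth limits the weak classes: of 17857 WT-only peaks expected to be listable in the knockout, 6674 were so at the low end of their own counting interval. What moved the other values was not tested.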
